A study of Mus musculus with 45 samples.

Results

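The 150 rows described here had lower read counts in hepatic stellate cells (HSCs) of mice with diet- or toxin-induced liver injury than in cells of control mice, and higher read counts in HSCs after 12 days of culture than in HSCs held in suspension for 2 hours. They were chosen by these measured values from the 23999 rows of the count tables. Counts were scaled to CPM (the count divided by the library's total count and multiplied by 1000000), averaged over the libraries of a group and taken as log2(CPM + 1), which is called the level below. A row was kept when its level was 3 or more in any group and was at least 0.5 higher at day 12 of culture than at day 0. The score of a row was the smallest of 3 differences, namely the decrease from chow to 24 weeks of Western diet, the decrease from vehicle to 8 weeks of CCl4, and the increase from day 0 to day 12 of culture. Of the 23999 rows, 13336 reached the level of 3 in a group and are called the expressed rows, and 5828 of these also met the requirement in culture. The 150 rows with the highest scores were taken. The row names of the tables do not follow the counts, so no gene is named, and each row is given by its line among the rows of the tables.

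HSCs are the vitamin A-storing pericytes of the liver. In the quiescent state they hold retinoid droplets, and on injury they lose these droplets, divide and turn into myofibroblasts that secrete collagen. Culture on plastic starts a similar conversion without hepatocytes, macrophages or the liver's matrix, and for that reason cultured HSCs are a common but incomplete model of the activated cell. A transcript that is lower after injury and higher on plastic changes in opposite directions in both settings, each against its own control. It need not end above the level of healthy mice in culture.

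The data were 45 RNA-seq libraries of HSCs from C57BL/6J mice in 13 groups. In the Western diet experiment (WD), mice received Western diet with fructose in the drinking water for 12, 16 or 24 weeks or chow and plain water (n = 4 per group), and feeding was started so that all mice had the same age at the end. In the CCl4 experiment, mice received CCl4, a solvent that injures hepatocytes, in corn oil for 1, 4 or 8 weeks (n = 3, 4 and 3) or corn oil alone as vehicle (n = 4). In the culture experiment (IVT), HSCs of healthy mice were held in suspension for 2 hours (d0) or cultured in serum-containing medium for 1, 4, 8 or 12 days (d1 to d12, n = 3 per group). Cells were sorted by the autofluorescence of retinoids when they were isolated from the liver, so that cells which had lost their retinoids in the animal were not collected. The cultured cells were sorted before plating and harvested directly, so that cells which lost retinoids in culture were included. The cell type could not be checked against marker genes because the rows carry no usable names. Total counts per library were between 2318311 and 7576527. A count of 3, taken as the floor of detection, was between 0.396 and 1.29 CPM, which covers counting error only. For the cultures, the paper's methods describe technical triplicates, but give 3 to 4 biological replicates for RNA sequencing. It is thus unclear whether the culture replicates are separate preparations or wells, and p-values within IVT may describe wells.

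Together, the 150 rows held 1.16% ± 0.076 (SD, n = 4) of all counts in chow-fed mice. This share was 0.747% ± 0.15 after 12 weeks, 0.463% ± 0.165 after 16 weeks and 0.554% ± 0.219 after 24 weeks of WD (SD, n = 4 each). It was 1.03% ± 0.092 (SD, n = 4) with vehicle and 0.977% ± 0.048 (SD, n = 3), 0.595% ± 0.118 (SD, n = 4) and 0.48% ± 0.093 (SD, n = 3) after 1, 4 and 8 weeks of CCl4. In culture it increased from 0.825% ± 0.077 on d0 to 1.36% ± 0.025 on d1, 1.79% ± 0.004 on d4, 1.95% ± 0.013 on d8 and 2.07% ± 0.025 on d12 (SD, n = 3 each). The controls of mice lay between d0 and d1 of culture. In bulk libraries, fewer cells with a transcript and less of it per cell cannot be told apart.

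**Figure D1:**
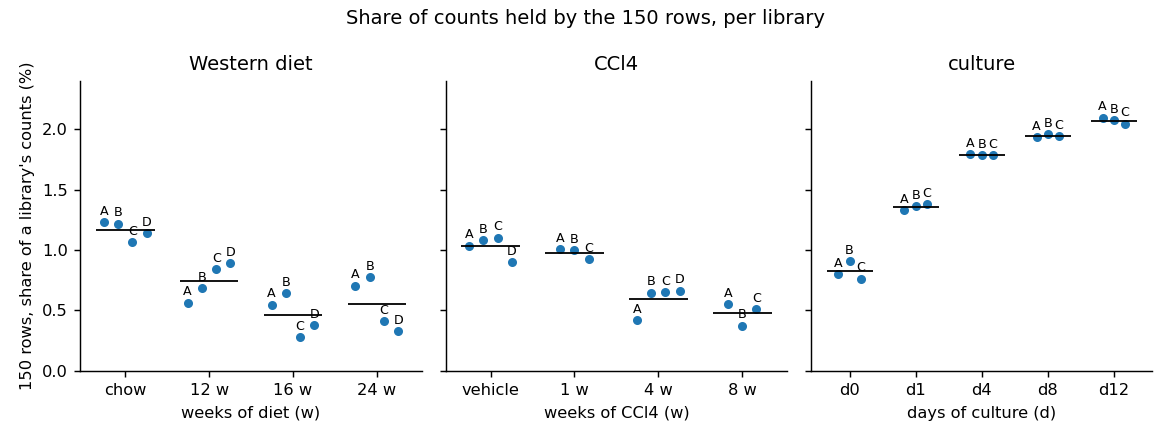
Share of each library's counts (y axis, percent) held by the 150 rows, for each group of the WD, CCl4 and culture experiments (x axis). Points are libraries marked with their replicate letter and bars are group means. Libraries C and D lie below A and B at 16 and 24 weeks of WD, and the 3 cultures of each day from d1 on lie close together.

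Libraries of WD mice did not behave alike. The median level of the 150 rows was 4.31 and 4.44 in replicates A and B at 16 weeks, but 3.27 and 3.76 in C and D. At 24 weeks it was 4.68 and 4.69 in A and B and 3.93 and 3.71 in C and D. Both C and D were below both A and B in 109 of the 150 rows at 16 weeks and in 125 at 24 weeks, against 27.4% and 28.4% of the expressed rows. At 12 weeks the order was different, with 4.26, 4.60, 4.93 and 5.04 in A to D. The letters come from the sample labels, which do not say whether a letter marks a shared batch.

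The differences from chow were smaller in A and B than in C and D. With A and B alone, the median difference from chow was -1.04 at 16 weeks and -0.68 at 24 weeks, and with C and D alone it was -1.79 and -1.54. All 150 rows were below chow in each case, but the chow and 24-week libraries entered the choice of the rows, so this is a description. Other transcripts moved with these libraries. The 1190 rows with a level at least 2 higher at 8 weeks of CCl4 than with vehicle held between 0.64% and 0.95% of the counts in chow libraries. At 16 weeks of WD they held 6.08% and 5.74% in A and B and 11.51% and 10.78% in C and D, and at 24 weeks 5.14% and 4.91% against 10.1% and 10.32%. In the CCl4 experiment, replicate A at 4 weeks was the lowest of its group for the 150 rows. Its share was 0.418% against 0.648% to 0.665% in B, C and D. The 1190 rows held 9.8% of the counts in this library against 6.4% to 6.94% in B, C and D. The 1558 rows with a level at least 2 higher at 24 weeks of WD than in chow were also highest in C and D at both times. They held 16.2%, 12.87%, 18.37% and 16.89% of the counts in A to D at 16 weeks, where A and D were close. At 24 weeks they held 11.8%, 9.42%, 16.01% and 18.81%. At 12 weeks they held 18.9% in A and 11.87%, 9.51% and 8.42% in B, C and D, and A was the library with the lowest median level of the 150 rows. The part of these transcripts in the differences of the 150 rows was not tested. The split of the libraries and these shares were examined after the values had been seen.

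The 150 rows started from ordinary levels. In chow-fed mice their median level was 5.49, with quartiles of 4.02 and 6.52, and the median of the 13336 expressed rows was 5.12. This put the median row at percentile 57.1 of the expressed rows. With vehicle the median level was 5.34. Across the 150 rows the levels in chow and vehicle had an r of 0.978 (Pearson), as a description over rows that share the libraries. Of the 150 rows, 106 were lower with vehicle than in chow and 44 higher, with a median difference of -0.17, against 48.6% lower and a median of 0.01 for the expressed rows. Levels of 7 or more were found for 29 rows (19.3%) in chow, against 14.9% of expressed rows, and levels below 3 for 13 rows (8.7%), against 22.0%.

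Cells of the culture experiment started lower. On d0, after 2 hours in suspension, the median level was 4.48, which is percentile 45.4 of the expressed rows. Between d0 and chow, 131 of the 150 rows were lower on d0 and 19 were higher, with a median difference of -1.04 against -0.23 for the expressed rows. Between d0 and vehicle the median difference was -0.78, against -0.26 for the expressed rows. On d0, 42 rows (28.0%) had a level below 3, which is near the 25.1% of the expressed rows. In chow it was 13 rows (8.7%) against 22.0%, and with vehicle 16 rows (10.7%) against 20.9%. Between WD at 24 weeks and d0 the median difference was -0.06, against 0.29 for the expressed rows, but single rows differed both ways, with 32 higher and 50 lower by 0.5 or more and 68 within 0.5. Of the expressed rows, 44.1% were higher and 27.1% lower by 0.5 or more in this comparison. Between 8 weeks of CCl4 and d0 the median difference was -0.26, against 0.40 for the expressed rows. By 0.5 or more, 24 rows were higher and 59 lower, against 47.3% and 25.3% of the expressed rows. The level on d0 entered the choice of the rows through the increase in culture, and the chow level through the decrease under WD. The d0 cells and the chow-fed mice are from separate experiments and libraries, and isolation, suspension and library set cannot be told apart here.

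The median level on d12 was 5.75. The levels on d12 and in chow both entered the choice of the rows, and their comparison is a description. Against chow, 68 rows were higher by 0.5 or more (36.8% of expressed rows), 60 were within 0.5 and 22 were lower by 0.5 or more (27.4%). The median difference was 0.35 against 0.15 for the expressed rows. On d12, 97 of the 150 rows were above chow and 53 below it, whereas 19 had been above chow on d0. At d12 49 rows (32.7%) had a level of 7 or more, against 17.6% of expressed rows. The level was 3 or more in all 13 groups for 94 of the rows. For 10 rows it was below 3 in every group of mice, and these rows met the requirement on the level in the culture experiment alone.

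Under WD, the lower level was present at 12 weeks and was largest at 16 weeks. The median difference from chow was -0.65 at 12 weeks, -1.28 at 16 weeks and -1.0 at 24 weeks, while the expressed rows stayed within -0.02 and 0.06. At 12 weeks all but 1 of the 150 rows were already below chow, and 111 were lower by 0.5 or more (15.9% of expressed rows). The median row had completed 63.7% of its final difference at 12 weeks and stood at 123.3% of it at 16 weeks. The lowest level was at 16 weeks for 127 rows (32.6% of expressed rows), at 24 weeks for 21 (8.4%) and at 12 weeks for 2 (18.0%), and 128 rows were higher at 24 than at 16 weeks, by a median over all 150 of 0.28 against 0.01 for the expressed rows, of which 47.5% were lower at 24 weeks. A decrease at each of the 3 steps was found for 18 rows (4.2% of expressed rows). The median level was higher at 24 than at 16 weeks in replicates A, B and C and lower in D, as given above. The groups of 12, 16 and 24 weeks share the same chow libraries. Because 24 weeks and chow were used to choose the rows, these differences are descriptions without a test.

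Under CCl4, by contrast, most rows were close to vehicle after 1 week. Vehicle mice were dosed for 8 weeks, so the groups of 1 and 4 weeks also differed from them in the length of dosing. The part of this in the early differences was not tested. The median difference from vehicle was -0.11 after 1 week, -0.80 after 4 weeks and -1.03 after 8 weeks. After 1 week 111 of the 150 rows were within 0.5 of vehicle. By 0.5 or more, 32 rows were lower and 7 were higher, against 12.8% and 20.3% of the expressed rows. The median row had completed 11.7% of its final difference. For 57 rows the highest level of the experiment was at 1 week, which was so for 21.7% of the expressed rows. At 4 weeks the median row had completed 76.9%, and 118 rows were lower by 0.5 or more (18.4% of expressed rows). The lowest level was at 8 weeks for 127 rows (23.8% of expressed rows) and at 4 weeks for 21 (14.9%), and 69 rows decreased at each of the 3 steps, against 8.4% of expressed rows. The earliest times sampled were 12 weeks of WD and 1 week of CCl4, so the time courses cannot be set against each other by the calendar. The libraries of 1 week carry numbers that follow on from the WD libraries, whereas those of vehicle, 4 and 8 weeks have a series of their own.

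In culture, most of the increase was complete by d4. The median difference from d0 was 0.61 on d1, 1.12 on d4, 1.15 on d8 and 1.23 on d12, and for the expressed rows it was 0.23, 0.28, 0.30 and 0.32. The median row had completed 51.3% of its final difference on d1, 88.4% on d4 and 91.0% on d8. The highest level was on d12 for 77 rows (22.7% of expressed rows), on d4 for 32 (12.0%), on d1 for 22 (27.9%) and on d8 for 19 (10.6%), and 22 rows increased at each of the 4 steps (7.7% of expressed rows). With TMM factors in place of library totals, the median difference of the expressed rows was 0.045 in place of 0.318 between d0 and d12, -0.006 in place of 0.117 between vehicle and 8 weeks of CCl4 and 0.045 in place of 0.057 between chow and 24 weeks of WD. With TMM factors the medians of the 150 rows at the last times were 0.93 in culture, -1.16 for CCl4 and -1.0 for WD, as a description of values used in the choice. The median difference on d1 was 0.29 with TMM factors.

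**Figure D2:**
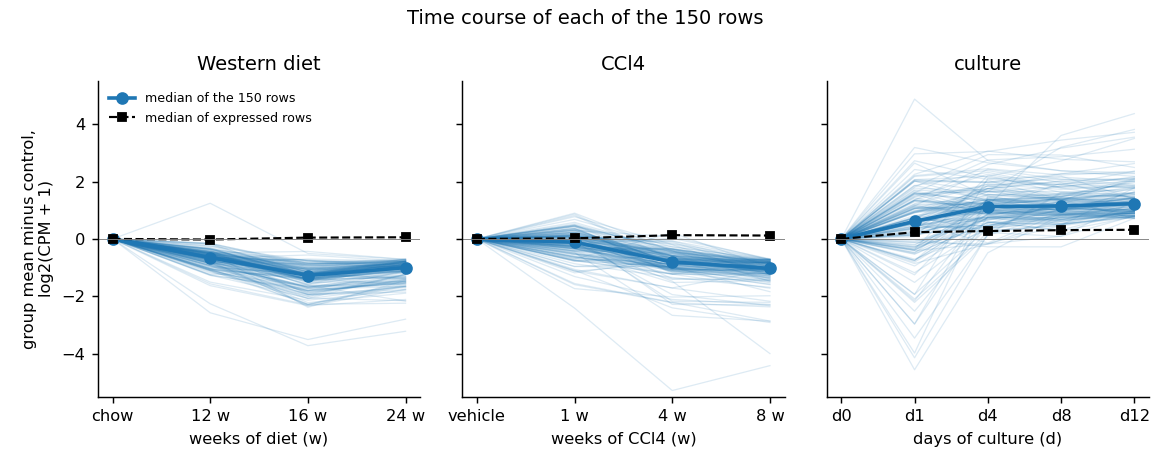
Difference of the group mean level from the control of the same experiment (y axis, log2(CPM + 1)) over time (x axis) for each of the 150 rows (thin lines), their median (circles) and the median of the 13336 expressed rows (squares). The median is lowest at 16 weeks of WD, is near 0 after 1 week of CCl4 and reaches 1.12 by d4 in culture.

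On the first day of culture the rows moved both ways, as the expressed rows did. Relative to d0, 88 rows (against 40.0% of expressed rows) were higher by 0.5 or more on d1, 38 were within 0.5 and 24 (against 24.3%) were lower by 0.5 or more. With TMM factors these counts were 62, 51 and 37. Shares of the expressed rows with TMM factors are not given, so these counts cannot be set against the shares above. The 88 rows had a median level of 4.33 on d0 and 5.62 on d1 and then stayed at 5.58, 5.57 and 5.61 on d4, d8 and d12. The 38 rows stayed at 5.16 on d0 and d1 and were at 6.0 on d4 and 6.45 on d12. The 24 rows had a median level of 3.80 on d0, 1.80 on d1, 4.72 on d4 and 4.95 on d12. In mice the 3 classes had medians of -0.95, -1.0 and -1.40 from chow to 24 weeks of WD and of -1.05, -0.92 and -0.96 from vehicle to 8 weeks of CCl4. The classes were formed after the values had been seen, and their differences were not tested.

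**Figure D3:**
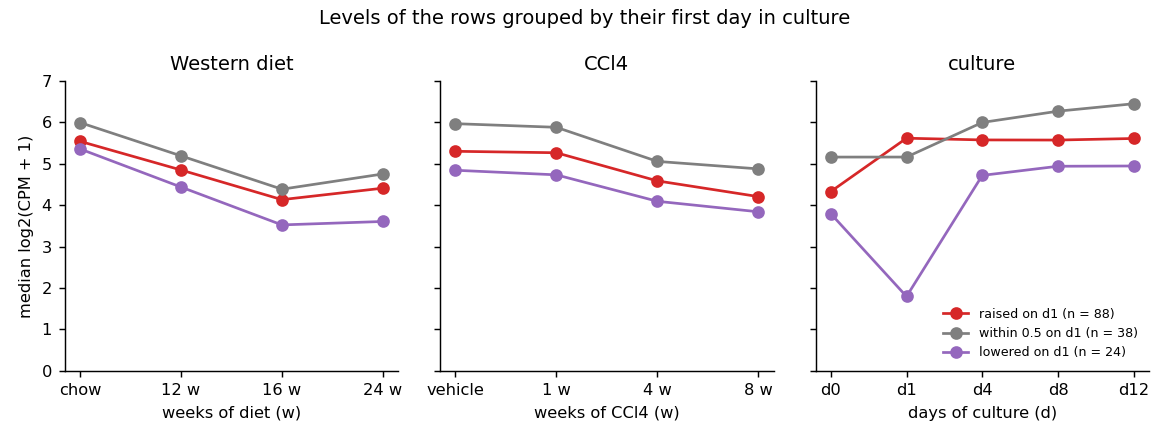
Median level (y axis, log2(CPM + 1)) in each group (x axis) for the 88 rows that were higher, the 38 rows that were within 0.5 and the 24 rows that were lower by 0.5 or more on d1 than on d0. The last class dips to 1.80 on d1 and is at 4.72 on d4, and all 3 classes have lower levels in WD and CCl4 mice than in controls.

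Time points that were not used for the 3 differences were compared with edgeR's quasi-likelihood test, with Benjamini-Hochberg adjustment over all rows. Calls required an FDR no higher than 0.05 together with an average log2CPM of the compared libraries of more than 2, which is termed the required mean. Between 12 and 16 weeks of WD, 148 of the 150 rows passed the expression filter and 129 had the required mean. Of these, 20 fell and 0 rose, against 3.76% and 9.17% of the 12212 rows tested. The median log2 fold change was -0.72 for the 129 rows and -0.10 for all rows tested, and 127 of the 129 values were below 0. At an unadjusted p below 0.05, 62 rows were lower and 0 higher, and DESeq2 called 33 lower and 0 higher. Shares of all rows tested are not given for either criterion, so these counts are a description only.

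The number of rows called between 12 and 16 weeks depended on single libraries. It was 2 without replicate C and 1 without replicate D of 16 weeks, 36 without replicate B of 16 weeks, and 6 and 5 without replicates C and D of 12 weeks. With only both compared groups in the fit, 4 rows were called. Shares of all rows called are not given for these alternatives. Among rows with the required mean, the largest decrease was at row 9038, with 75.9, 81.2 and 141 CPM in A, B and C and a higher value in D at 12 weeks (mean 112 ± 38.3 CPM, SD, n = 4), and 45.3, 49.1, 7.21 and 14.7 CPM at 16 weeks. All 4 libraries of 16 weeks were below those of 12 weeks, and the log2 fold change was -1.96 (SE 0.56, FDR 0.032). Without any 1 of C and D of either group, the FDR of row 9038 was between 0.076 and 0.12, and over all alternatives it was between 0.0049 and 0.12.

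Row 19519 was the next, with 91.6, 24.3, 26.3 and 19.5 CPM at 12 weeks and 18.8, 12.1, 6.13 and 8.34 CPM at 16 weeks (log2 fold change -1.92, SE 0.53, FDR 0.027). It was the only one of the 150 rows with a higher mean level at 12 weeks than in chow, where it had 18, 15.9, 17.1 and 15.1 CPM. Replicate A was far above the others, although B, C and D also exceeded every chow library. Without replicate A the log2 fold change from 12 to 16 weeks was -1.07 with an FDR of 0.091. Its FDR was 0.1 and 0.098 without replicate C or D of 16 weeks, and between 0.0035 and 0.1 over all alternatives.

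Between 1 and 4 weeks of CCl4, the decrease was broader. Of the 135 rows with the required mean, 93 fell and 1 rose, against 22.9% and 22.6% of the 12035 rows tested. The median log2 fold change was -0.80 against 0.01 for all rows tested, and 129 of the 135 values were below 0. Without replicate A of 4 weeks, which stood apart, 81 rows fell. The number was between 75 and 98 when any 1 library was left out, and shares of all rows are not given for these fits. The libraries of 1 week belong to another run of library numbers than those of 4 weeks, so time and library series cannot be told apart in this comparison.

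Among rows with the required mean, row 18808 had the largest decrease, with 41.8, 29.9 and 51.6 CPM after 1 week and 1.93, 8.79, 10.4 and 11.9 CPM after 4 weeks (log2 fold change -2.42, SE 0.35, FDR 9.6e-05). Row 14798 had 93.4, 76.4 and 72.3 CPM after 1 week, close to 72.8, 98.5, 88.8 and 60.4 CPM with vehicle, and 8, 13, 23 and 24.1 CPM after 4 weeks (log2 fold change -2.36, SE 0.28, FDR 2.1e-05). In both rows the libraries of the 2 times did not overlap. Row 11465 was the 1 that rose, with 25.6, 25 and 31.2 CPM after 1 week and 50.7, 80.9, 38.3 and 38.5 CPM after 4 weeks (log2 fold change 0.80, SE 0.25, FDR 0.016). This call was lost without replicate A or B of 1 week or without replicate B of 4 weeks, at FDR values of 0.08, 0.069 and 0.058, and the FDR was between 0.0048 and 0.08 over all alternatives. After 8 weeks row 11465 was at 16.8, 28 and 21.1 CPM.

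In culture, 141 rows had the required mean between d1 and d4. Of these, 83 rose and 19 fell, against 33.3% and 34.9% of the 11049 rows tested. The median log2 fold change was 0.48 against -0.03 for all rows tested. Among these rows the largest increase was at row 17236, with 1.07, 2.55 and 1.66 CPM on d1 and 116, 127 and 118 CPM on d4 (log2 fold change 6.09, SE 0.18, FDR 3.2e-14). On d0 the same row had 38.6, 36.6 and 52 CPM, so that its course was a dip on d1. Row 12589 had a similar course, with 46.6, 65.7 and 41.6 CPM on d0, 0.913, 1.84 and 0.905 CPM on d1 and 36.6, 38.6 and 34 CPM on d4 (log2 fold change 4.88 from d1 to d4, SE 0.23, FDR 1.2e-11).

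The 2 rows with the largest decreases between d1 and d4 had their highest culture values on d1. Row 14108 had 2.4, 0.93 and 1.69 CPM on d0, 73.5, 76.9 and 81.2 CPM on d1 and 18.9, 16.6 and 14.7 CPM on d4 (log2 fold change -2.19 from d1 to d4, SE 0.12, FDR 6.1e-11). Row 7064 had 32.3, 31.6 and 39.1 CPM on d1 and 14.7, 15.3 and 14.7 CPM on d4 (log2 fold change -1.19, SE 0.13, FDR 4.3e-07). On d12 they were at 11.1 ± 1.29 and 10 ± 0.987 CPM (SD, n = 3), above d0 as the choice of the rows requires.

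Between d4 and d8 the rows moved both ways. Of 148 rows with the required mean, 37 rose and 21 fell, against 17.7% and 15.8% of the 11352 rows tested, and the median log2 fold change was 0.02 against -0.01. The count of rows that fell was between 10 and 15 when any 1 library of d4 or d8 was left out, and it was lowest without replicate A of d4. Without replicates A, B and C of d8 it was 11, 12 and 12. With only both compared groups in the fit, 55 rows rose and 45 fell. The shares above belong to the main fit, and none are given for these alternatives, so their counts are a description only.

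Row 15005 had the largest increase, with 16.7, 13.6 and 15.8 CPM on d4 and 84.8, 90.7 and 90 CPM on d8 (log2 fold change 2.53, SE 0.12, FDR 6.7e-11). Row 3344 had 5.99, 5.79 and 5.43 CPM on d4 and 17.8, 18.6 and 19.6 CPM on d8 (log2 fold change 1.71, SE 0.15, FDR 1.3e-07). Both went on to higher values on d12. The level of row 3344 was 3 or more only on d8 and d12 (4.30 and 4.92). It met the requirement on the level only through a group compared here and the last time, so its rise is a description. Row 4456 had 11.3, 11.7 and 12.5 CPM on d4 and 7.44, 7.81 and 6.08 CPM on d8 (log2 fold change -0.73, SE 0.20, FDR 0.0082). Its FDR was 0.054 without replicate C of d8 and between 2.6e-05 and 0.054 over all alternatives. The level of row 4456 was 3 or more only on d4 and d8 (3.68 and 3.02). It met the requirement on the level only through the groups compared here, so its fall is a description. Row 14451 had 1116, 1010 and 1017 reads on d4 and 664, 633 and 770 reads on d8, in libraries of similar totals (log2 fold change -0.59, SE 0.14, FDR 0.0027).

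**Figure D4:**
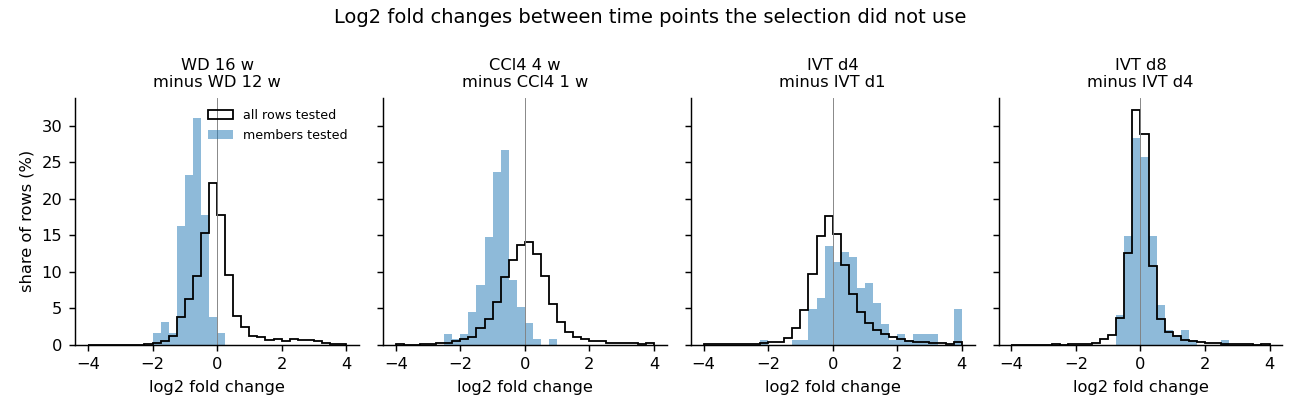
Share of rows (y axis, percent) by log2 fold change (x axis, edgeR) for the members tested (filled) and all rows tested (line) in the comparisons of WD 16 with 12 weeks, CCl4 4 with 1 week, IVT d4 with d1 and IVT d8 with d4. Values beyond -4 or 4 are placed in the outermost bars. The members lie to the left of all rows in both in vivo comparisons, to the right for d4 minus d1, and over them for d8 minus d4.

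The 8 rows with the highest scores show how different the courses were. Their values at the controls and at the last times were used to choose them and are given without a test. Row 11307 had the highest score, with 108, 93.9, 142 and 157 CPM in chow, 17.9, 41.2, 42.9 and 64.8 CPM at 12 weeks, 33.9, 39.9, 7.39 and 17.9 CPM at 16 weeks and 64.5, 51.3, 24.5 and 17.3 CPM at 24 weeks of WD. It had 154, 122, 180 and 180 CPM with vehicle, 62.3, 43.1 and 55 CPM at 1 week, 24.8, 42.2, 28.4 and 39 CPM at 4 weeks and 19.2, 15.1 and 28.6 CPM at 8 weeks of CCl4. In culture it had 22.6, 41.3 and 27.8 CPM on d0, 121, 112 and 108 CPM on d1, 167, 148 and 154 CPM on d4, 112, 111 and 105 CPM on d8 and 144, 138 and 141 CPM on d12. Every library of an injured mouse was below every control library, and the d0 cultures were already as low as the treated mice. Unlike most of the 150 rows, this row was low after 1 week of CCl4.

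Row 20890 was also low at the first time of both mouse experiments. It had 32.4, 32.7, 46.7 and 116 CPM in chow and 4.47, 6.6, 8.32 and 15.7 CPM at 12 weeks of WD. With vehicle it had 48.2, 49.6, 94.1 and 111 CPM, and after CCl4 17.7, 7.89 and 14.8 CPM at 1 week, 0, 0.44, 1.66 and 1.8 CPM at 4 weeks and 1.2, 2.59 and 4.02 CPM at 8 weeks. The groups of control and treated mice did not overlap. On d0 it was at 80.3, 75.5 and 69.4 CPM, a level like that of control mice, and it was at 297, 288 and 292 CPM on d8 and at 205, 192 and 207 CPM on d12. Here the higher value in culture was thus an increase beyond the level of healthy mice, and not a return to it.

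Row 15005 had the largest increase of the 150 rows in culture, 4.36 on the log2(CPM + 1) scale. It had 12, 8.43, 4.09 and 6.56 CPM in chow and 4.18, 2.8, 0.211 and 0.781 CPM at 24 weeks of WD. With vehicle it had 6.98, 5.49, 2.95 and 3.12 CPM, and at 8 weeks of CCl4 0, 0.431 and 0 CPM, at or below the floor of 3 counts in each library. In culture it had 6.01, 5.21 and 7.87 CPM on d0, 1.37, 0.283 and 0.302 CPM on d1 and 147 and 153 CPM in A and C on d12, with B between them. It was among the rows that were lower on d1 than on d0.

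Rows 13671 and 11317 were unlike rows 11307 and 20890 after 1 week of CCl4. Row 13671 had 75.3 ± 9.86 CPM with vehicle (SD, n = 4), 83.7 ± 13.8 CPM after 1 week (SD, n = 3) and 33.2 ± 5.82 CPM after 4 weeks (SD, n = 4). Row 11317 had 19.7 ± 4.58 CPM, 21.3 ± 2.59 CPM and 6.94 ± 1.2 CPM in these groups. The libraries of 1 week and of vehicle overlapped in both rows, and those of 4 weeks were below both.

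Row 897 had 11.5 ± 1.5 CPM in chow and 3.44 ± 3.14 CPM at 24 weeks of WD (SD, n = 4), where A and B had 4.64 and 7.32 CPM and C and D 0.844 and 0.937 CPM. In culture it went from 1.21 ± 0.0889 CPM on d0 to 9.54 ± 1.46 CPM on d4 and 5 ± 0.616 CPM on d12 (SD, n = 3). It therefore ended below the chow level.

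Row 16361 had low counts, with 4.12 ± 2.06 CPM in chow (SD, n = 4) and 0.606 ± 0.18 CPM at 24 weeks of WD, and it was at 2.91 ± 1.02 CPM on d0 and 9.55 ± 0.413 CPM on d12 (SD, n = 3). Row 23451 had 8.3 ± 2.6 CPM in chow and 2.46 ± 1.25 CPM at 24 weeks of WD (SD, n = 4), and 6.75 ± 1.62 CPM on d0, 18.5 ± 1.78 CPM on d1 and 22.8 ± 3.58 CPM on d12 (SD, n = 3). The increase of row 23451 took place mainly on the first day, while that of row 16361 came after it.

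**Figure D5:**
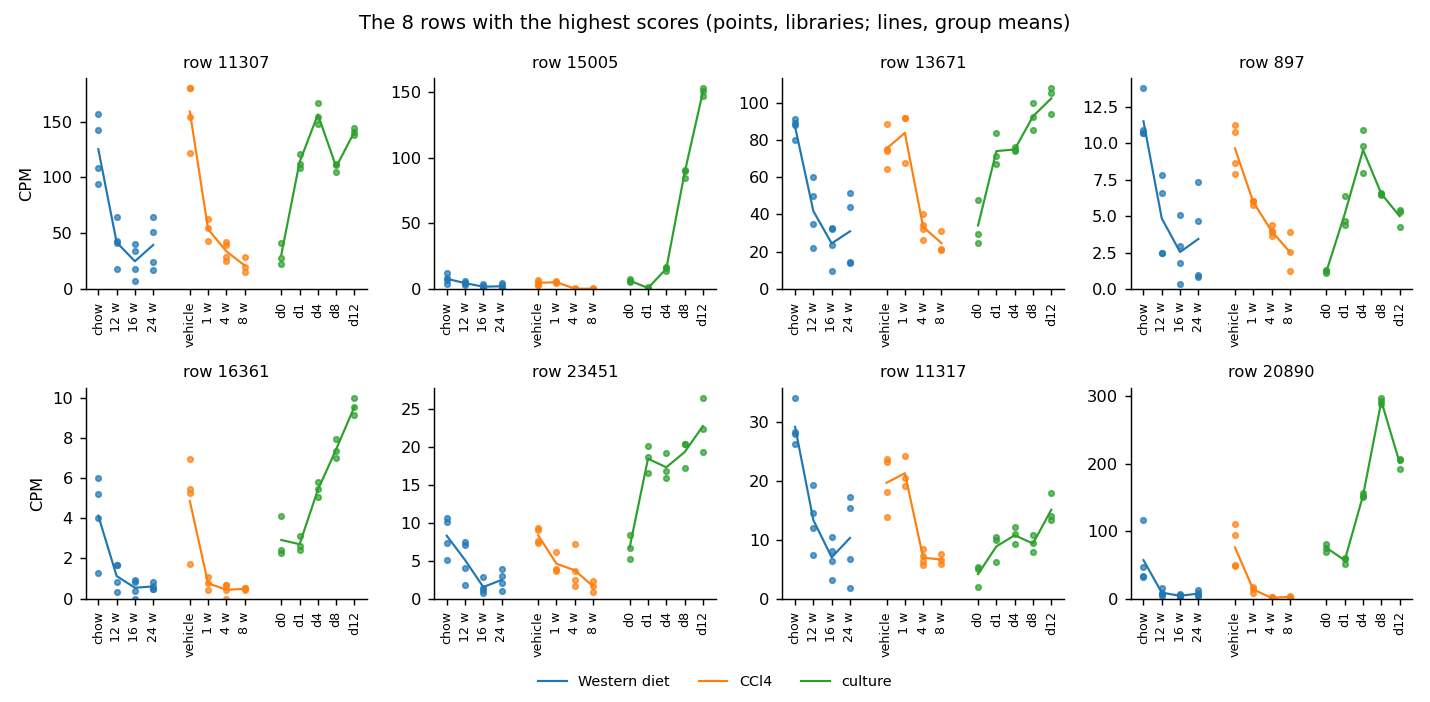
CPM (y axis) in every library of the WD, CCl4 and culture experiments (x axis) for the 8 rows with the highest scores. Points are libraries and lines join group means. In each row the last WD and CCl4 groups have lower means than their controls and d12 has a higher mean than d0, but the first week of CCl4, d1 and the level on d0 differ from row to row.

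The rows also covered a wide range of levels. Row 13562 had the highest level of them in chow, with 573, 606, 555 and 591 CPM, and 313, 403, 164 and 96.3 CPM at 24 weeks of WD. It had 416, 496, 524 and 457 CPM with vehicle and 528, 502 and 501 CPM after 1 week of CCl4, and then 248, 148 and 213 CPM after 8 weeks. On d0 it was at 267, 452 and 283 CPM and on d12 at 785, 769 and 764 CPM. The libraries of 1 week of CCl4 overlapped with those of vehicle, and those of 8 weeks were below both. Row 23760 had the lowest level in chow, with 2.04, 1.95, 1.28 and 1.28 CPM, and was at 14, 15.7 and 15.6 CPM on d12.

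At the threshold, neighbouring rows hardly differed in score. The last rows taken had scores of 0.70 and 0.69 (rows 17236 and 13237), and the first rows left out, 23896 and 22430, had scores of 0.69 and 0.68. The highest score was 1.64 and the median 0.85, and 334 rows had a score of 0.5 or more. The smallest of the 3 differences was that of WD for 56 rows, that of CCl4 for 56 and that of culture for 38. Within the 150 rows, the differences under WD and CCl4 had an r of 0.53 (Pearson) and a rho of 0.34 (Spearman), and r with the difference in culture was 0.05 for WD and -0.06 for CCl4. These 3 differences chose the rows and each is limited by the threshold on the score, so the correlations are shaped by the choice, and they are given only as a description across rows of the same libraries.

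Libraries of control and last time did not overlap in 128 rows for WD, in 121 for CCl4 and in 150 for culture, against 20.7%, 19.8% and 49.9% of the expressed rows, and all of these values entered the choice. Libraries that did not enter it were examined by choosing 150 rows again without replicate A, B or C of every group and reading the differences in the libraries left out, which are 1 per group. Without A, 144 of the rows so chosen had all 3 directions in the A libraries, against 15.1% of expressed rows. Without B this was 137 (17%), and without C it was 142 (14.7%). The medians in the libraries left out were -0.81, -0.71 and -1.25 for WD, -0.83, -1.42 and -1.01 for CCl4 and 1.41, 0.79 and 1.44 for culture. Of the 150 rows, 123, 110 and 123 were chosen again.

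The spread between libraries was larger for the 150 rows than for the expressed rows at 16 and 24 weeks of WD. The median SD of the level over the 4 libraries of a group was 0.57 at 24 weeks of WD, against 0.32 for the expressed rows, and 0.55 against 0.31 at 16 weeks. After 8 weeks of CCl4 it was 0.35 against 0.29 (n = 3), with vehicle 0.24 against 0.21 (n = 4), in chow 0.21 against 0.19, and on d12 of culture 0.07 against 0.08 (n = 3). The difference in spread was not tested.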

How the data were processed

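The authors aligned the reads of polyA-selected RNA with STAR to mm10, used HOMER to count exon reads of either strand (no more than 3 per position were kept) and deposited raw read counts without normalization. Versions are not given in the sources used here. The 3 tables list 23999 rows in the same order, and rows were joined by line. The rank correlation by line was between 0.933 and 0.968 for the controls. Spearman's rho between listed transcript length and mean count was -3.9e-05 over 15835 rows with a mean count of 1 or more, and rows were treated as unnamed. All 3 headers name the same source libraries, so each column was tied to a sample through its title. All value columns were used.

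CPM were counts divided by the library total times 1000000, and the pseudocount was 1. The 150 rows and all lists were chosen with earlier results of these data known. Rows described singly were the 8 with the highest scores, the last 2 taken and the first 2 left out, the highest and lowest in chow and, per tested comparison, the 2 called with the largest rise and the 2 with the largest fall.

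Counts were tested with edgeR 4.0.16 in R 4.3.3 (TMM, filterByExpr, quasi-likelihood, all groups of an experiment in 1 fit), on 13510, 13513 and 13655 rows for WD, CCl4 and IVT. The biological coefficients of variation were 0.3, 0.208 and 0.077. The script was tested on simulated data. Tables and figures used Python 3.11.15. Alternatives were DESeq2 1.42.0, its size factors, library totals, no filter, only the compared groups, a 2-fold minimum, the replicate letter as a block, leaving out each library and, for the levels and the choice of rows, other pseudocounts, floors and TMM-scaled CPM. Leaving out C and D of 16 and 24 weeks of WD was added after seeing the data.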

Additional observations from a re-analysis of the deposited data

Results flagged for a closer look

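A library was set apart when its gap to the nearest of its group filled most of the range of a group of 4 (Dixon's criterion at 95%). This held in 7 of 168 groups examined, and chance gives about 1 in 20. Replicate D of the vehicle group had a median level of 5.14 over the 150 rows, below the other vehicle libraries. Replicate A at 4 weeks of CCl4 had a median level of 4.06 and a share of counts of 0.418%, both the lowest of its group. Replicate B at 12 weeks of WD had a total of 2425443 counts, far fewer than the other libraries of that group. Row 897 was at 13.8 CPM in replicate C of the chow group, above the others. Row 19519 was at 91.6 CPM in replicate A at 12 weeks of WD, against 19.5 to 26.3 CPM in B, C and D. Row 18808 was at 34.2 CPM in replicate C at 24 weeks of WD, below the others. The cause of these values was not tested.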

How the results depend on the processing

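Of 168 recomputed counts and medians, 23 moved by more than the spread between replicates or by more than 1.5 times. Counts have no direction to change. The medians kept their sign, but the controls in them entered the choice of the rows. Rows called lower at 16 than at 12 weeks of WD numbered 20 in the main analysis, 33 by DESeq2, 4 with only the compared groups, 10 with a change of at least 2-fold and between 1 and 36 without 1 library. A minimum of 2-fold left 0 rows higher and 40 lower between 1 and 4 weeks of CCl4, 41 higher and 2 lower between d1 and d4, and 7 higher and 0 lower between d4 and d8. The count of rows higher at 4 weeks of CCl4 was 0 or 1 without 1 library. With only the compared groups, 45 rows were lower on d8 than on d4, and without 1 library between 10 and 15. The median difference on d1 was 0.295 with TMM-scaled CPM. A minimum of 2-fold can only lower a count, and the cause of the other shifts was not tested. Shares of all rows called are given for the main analysis only, so the alternative counts cannot be set against a background. Other scalings, filters and pseudocounts left the counts within 1.5 times and the medians within the spread between replicates.

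Replicate letters are shared between groups. Correlations of the deviations of libraries with the same letter were between -0.359 and 0.214 for 12 and 16 weeks of WD, between -0.093 and 0.064 for 1 and 4 weeks of CCl4 and at most 0.041 in the tested comparisons of culture, so the letters were not taken to pair the libraries in these 4 comparisons. Other pairs of groups were not examined. With the letter as a replicate block, 29 rows were lower and 0 higher at 16 weeks of WD, 85 lower and 1 higher at 4 weeks of CCl4, 19 lower and 82 higher on d4, and 18 lower and 36 higher on d8. Shares of all rows called with the block are not given.

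The choice of rows itself depended on the processing. Of the 150 rows, 111 were chosen again with TMM-scaled CPM, 147 and 126 with pseudocounts of 0.5 and 4, 142 and 134 with level floors of 2 and 4, and 150 and 100 with a minimum increase of 0 and 1 in culture. Without replicates C and D of 16 and 24 weeks of WD, 102 were chosen again. In the smallest library, replicate B at 8 weeks of CCl4, 11 of the 150 rows were under 3 counts. Low values in that group entered the choice of the rows. Replicate B at 12 weeks of WD, with 2425443 counts, had 1 such row. Replicate C at 16 weeks of WD, with 5545026 counts, had 9. The part of depth in these numbers was not tested.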
